A study of Mus musculus with 114 samples.

Results

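Voltage-gated sodium channels of the brain are described here through 7 subunit genes, found in the count table by their Ensembl identifiers: 4 that encode pore-forming alpha subunits (Scn1a, Scn2a, Scn3a, Scn8a) and 3 that encode accessory beta subunits (Scn2b, Scn3b, Scn4b). They are 7 of 13101 genes in the table, and all 7 passed the filter on low counts. The libraries hold RNA from ribosomes of mouse prefrontal cortex. In the RiboTag method used, a ribosomal protein carries a haemagglutinin tag in a chosen cell type, and an antibody against the tag pulls those ribosomes down with their RNA. The design names parvalbumin (PV) and pyramidal cells at 6 times of day, in hours of zeitgeber time (ZT): ZT2, ZT6, ZT10, ZT14, ZT18 and ZT22.

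Compared were 2 groups: 55 libraries whose titles begin with PV (28 from females, 27 from males) and 58 whose titles begin with C (29 from females, 29 from males), with 8 to 10 libraries at each time. All carry the genotype entry Ribo-tag mice, and the source is brain. The sources used here do not give the driver that switches the tag on, the age of the mice or whether a library comes from its own animal, so the p-values measure the spread between libraries, which may be partly technical. In every library the cell type entry of the labels contradicts the prefix of the title (libraries titled C carry the entry for parvalbumin interneurons), and the grouping follows the title.

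A sodium channel consists of 1 large alpha subunit, which forms the pore and senses voltage, and beta subunits, single-span membrane proteins that alter its gating and its place in the membrane. Channels opened by a depolarisation carry the rising phase of the action potential. In cortex, the Scn1a product is best known from fast-spiking PV interneurons, and loss of 1 copy causes Dravet syndrome in people. The Scn2a and Scn8a products are both found in pyramidal cells, at different positions along the axon initial segment, and Scn3a is best known from the developing brain.

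The alpha subunit genes are close relatives, so the stretches in which reads cannot be told apart were looked for. In GRCm38, 3 of them lie side by side on chromosome 2: Scn3a (ENSMUSG00000057182, 65457118 to 65567627, minus strand), Scn2a (ENSMUSG00000075318, 65620771 to 65767447, plus strand) and Scn1a (ENSMUSG00000064329, 66270778 to 66440840, minus strand). Scn8a (ENSMUSG00000023033) lies on chromosome 15, 100869858 to 101045938. The coding sequences of Scn1a and Scn2a were identical at 83.4% of aligned bases. The longest run shared by Scn1a and Scn8a had 37 bases. It is shown 5′ to 3′ in the coding direction, from GENCODE vM21 transcripts, as the longest stretch in which this pair cannot be told apart.
Scn1a and Scn8a: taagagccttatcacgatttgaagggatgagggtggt

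Longer shared stretches were a small part of each gene. Of all 100-base windows of the coding sequence, 2.25% of those of Scn2a, 1.67% of those of Scn3a and 1.64% of those of Scn1a occurred in another of the 4 alpha genes, and none of the 5868 windows of Scn8a did. How reads from these windows were assigned is not stated. The 3 beta genes lie on chromosome 9: Scn3b (ENSMUSG00000049281, 40269217 to 40291618), Scn2b (ENSMUSG00000070304, 45117782 to 45130070) and Scn4b (ENSMUSG00000046480, 45138395 to 45154152), with 8.32 kb between Scn2b and Scn4b. No 2 of their coding sequences shared an identical run of more than 13 bases.

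The median number of counts on genes was 25.7 M (megacounts) in PV-titled libraries, with extremes of 19.1 and 39.5 M, and 34.4 M in C-titled libraries, with extremes of 24.6 and 44.1 M. The summed level of 6 PV interneuron markers (Pvalb, Tac1, Syt2, Cox6a2, Kcnc1, Kcnc2) was 200 to 750 CPM (counts scaled to a common library total), median 375, in PV-titled libraries, against 65.0 to 138 CPM, median 95.0, in C-titled ones, and 7 pyramidal markers summed to 1247 to 3577 CPM in PV-titled libraries, against 3610 to 7486 CPM in C-titled libraries. All 6 GABAergic markers and 4 of 6 markers of other interneurons were higher, and the other 2 lower, in PV-titled libraries. The sum of the 6 other interneuron markers was nonetheless lower there, at 286.5 to 773 CPM, median 473, in PV-titled libraries, against 690.3 to 2997 CPM, median 1213, in C-titled libraries. Thus the PV and pyramidal markers followed the title prefix and not the cell type entry. Glial and vascular markers also moved with the prefix: all 6 astrocyte, 4 tested oligodendrocyte, 3 oligodendrocyte precursor, 5 microglia and 5 endothelial and mural markers were higher in PV-titled libraries by edgeR. The astrocyte sum was 787 to 1372 CPM in PV-titled libraries, against 217.5 to 894 CPM in C-titled libraries. Their part in the differences given next was not tested. No marker was at 0 in every library, and fewer cells of a type cannot be told apart from less RNA per cell. In 8 PV-titled libraries the median correlation with libraries of the same prefix was 0.808 to 0.903, against 0.937 for the typical PV-titled library. In 6 C-titled libraries it was 0.878 to 0.959, against a typical 0.978. These 14 are called libraries that stand apart, and where stated, results are also given without them.

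Scn1a had the largest difference of the 7 genes between the prefixes. Its level was 62.3 to 229 CPM in PV-titled libraries, with a median of 127, and 27.3 to 75.3 CPM in C-titled libraries, with a median of 44.9. In 54 of 55 PV-titled libraries the level lay above that of the highest C-titled library, so the groups overlapped by a single PV-titled library, which stands apart. The difference was 2.94-fold (log2 1.55, SE 0.05, edgeR adjusted p = 2.96e-54). It was 1.47 on the log2 scale in the first and 1.62 in the second of 2 ranges of library numbers in the titles, and 1.55 without the libraries that stand apart.

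Across the family, 6 of the 7 genes passed the edgeR test between prefixes at an adjusted p of 0.05, 2 higher and 4 lower in PV-titled libraries. Of all genes tested, 87.5% passed, 44.3% higher and 43.2% lower, so the number of calls does not set the family apart and the sizes carry the description. The median log2 difference of the 7 genes was -0.44, against 0.01 over all genes, and the median absolute difference over all genes was 0.60. That median of 7 is the value of Scn2b, which was -0.01 in the first and -0.74 in the second range.

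Scn2a went the other way from Scn1a. It had 174.2 to 321 CPM in PV-titled libraries, median 232.6, and 255.9 to 602 CPM in C-titled libraries, median 370. All 55 PV-titled libraries lay below the C-titled median, and 38 of them below the lowest C-titled library. The log2 difference was -0.63 (SE 0.04, edgeR adjusted p = 1.68e-29), with -0.52 in the first and -0.73 in the second range of library numbers.

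Scn3a was moderately higher in PV-titled libraries, at 34.9 to 102 CPM, median 68.8, against 33.4 to 84.5 CPM, median 50.2, in C-titled ones. The ranges overlapped widely, although 51 of 55 PV-titled libraries exceeded the C-titled median. The log2 difference was 0.49 (SE 0.05, edgeR adjusted p = 1.63e-18), and it was 0.55 and 0.42 in the first and second range. Mean Scn3a in PV-titled libraries was 61.4 CPM in the first and 79.1 CPM in the second range. The C-titled means were 41.9 and 58.9 CPM, so the overlap above pools 2 ranges of unlike level. Scn8a, whose product is the main sodium channel of mature nodes of Ranvier, had nearly the same level in both groups. It ranged from 202.7 to 484 CPM in PV-titled libraries, median 355, and from 195.96 to 470 CPM in C-titled libraries, median 334. Its log2 difference of 0.08 (SE 0.05, edgeR adjusted p = 0.0946) did not pass, but it stood at -0.02 in the first range (adjusted p = 0.815) and at 0.18 in the second (adjusted p = 0.00471), and it passed once the libraries that stand apart were left out (0.10, adjusted p = 0.00703) and at 0.11 without replicate 2 of each group (adjusted p = 0.0154).

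**Figure D1:**
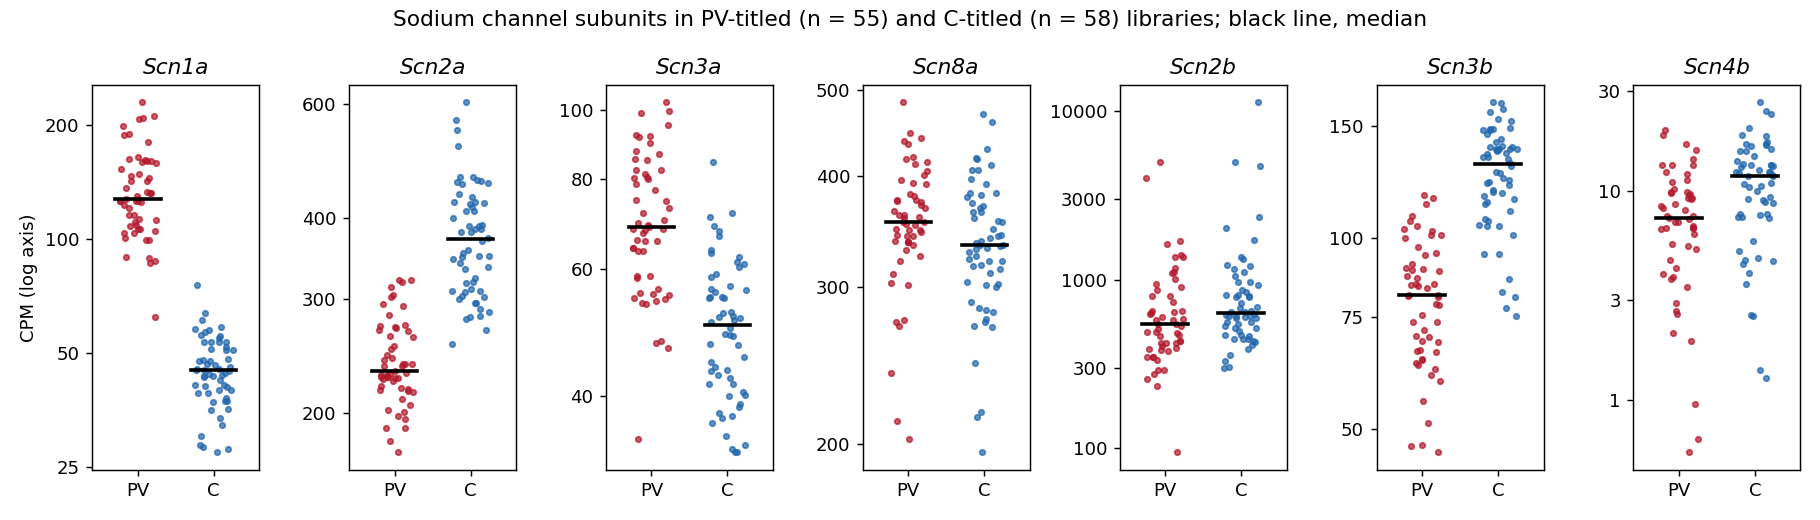
Level of each sodium channel gene in every library, in CPM on a log axis, with PV-titled libraries (red, n = 55) left of C-titled libraries (blue, n = 58) and a black line at the median. Scn1a separates the groups except for 1 PV-titled library, Scn2a and Scn3b sit lower in PV-titled libraries, Scn8a overlaps almost fully, and the 1 PV-titled library with 0 counts of Scn4b is not drawn.

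The beta subunit genes were all lower in PV-titled libraries, with very different firmness. Scn3b, whose product associates with alpha subunits without a covalent bond, had 46.0 to 117 CPM in PV-titled libraries, median 81.4, and 75.5 to 163.4 CPM in C-titled libraries, median 131. All 55 PV-titled libraries lay below the C-titled median. The log2 difference was -0.65 (SE 0.05, edgeR adjusted p = 4.01e-22), and it kept its direction in the first (-0.78) and second range (-0.53).

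Scn4b encodes the beta subunit linked to resurgent sodium current, and it was the least abundant of the 7. It had 0 to 19.6 CPM in PV-titled libraries, median 7.40, and 1.28 to 26.6 CPM in C-titled libraries, median 11.8. The groups overlapped over most of their range, with 45 of 55 PV-titled libraries below the C-titled median. Its mean in the first and second range was 5.30 and 10.1 CPM in PV-titled libraries, and 9.85 and 12.8 CPM in C-titled ones. In the library at 0, the PV-titled replicate 4 at ZT22, a count of 0 allows a level of up to 0.0693 CPM (3 counts, counting error only). The log2 difference was -0.60 (SE 0.17, edgeR adjusted p = 5.85e-04), at -0.86 in the first range (adjusted p = 0.00633) and -0.34 in the second, where it did not pass (adjusted p = 0.0622). It did not pass in males alone either (-0.52, adjusted p = 0.0616). With the libraries that stand apart left out, the difference was -0.61 (edgeR adjusted p = 2.08e-05).

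Scn2b, whose product is joined to the alpha subunit by a disulfide bond, was the most variable subunit gene. Its level ran from 94.9 to 4985 CPM in PV-titled libraries, median 543, and from 297.5 to 11233 CPM in C-titled libraries, median 638. Thus the highest library of each group lay 52.5 times above the lowest among PV-titled and 37.8 times above it among C-titled libraries, where the same ratio for Scn2a was 1.84 and 2.35. Mean Scn2b in the first and second range was 1125 and 469 CPM in PV-titled libraries, and 1316 and 833 CPM in C-titled ones. The log2 difference of -0.44 (SE 0.20, edgeR adjusted p = 0.0323) was -0.01 in the first range (adjusted p = 0.986) and -0.74 in the second (adjusted p = 5.89e-04). It was -0.31 once those that stand apart were left out (adjusted p = 0.0127). It no longer passed without replicate 5, 6 or 7 of each group, at -0.20, -0.20 and -0.41, nor in females alone (-0.40, adjusted p = 0.162) or males alone (-0.51, adjusted p = 0.0604).

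Most of the extreme values of Scn2b came from libraries that stand apart. The 5 highest were all among them, at 4985 CPM in the PV-titled replicate 2 at ZT14, 4014 CPM in the PV-titled replicate 2 at ZT10, 11233 CPM in the C-titled replicate 5 at ZT2, and 4994 and 4691 CPM in the C-titled replicates 5 and 6 at ZT6. In the same 5 libraries Scn4b was low, at 0.956 and 2.67 CPM in the PV-titled pair and 1.28, 1.39 and 2.54 CPM in the C-titled ones, in that order. The lowest Scn2b level, 94.9 CPM, came from another library that stands apart, the one with 0 counts of Scn4b. Without the libraries that stand apart the range of Scn2b was 232.6 to 1405 CPM in PV-titled libraries, against 297.5 to 2336 CPM in C-titled libraries.

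**Figure D2:**
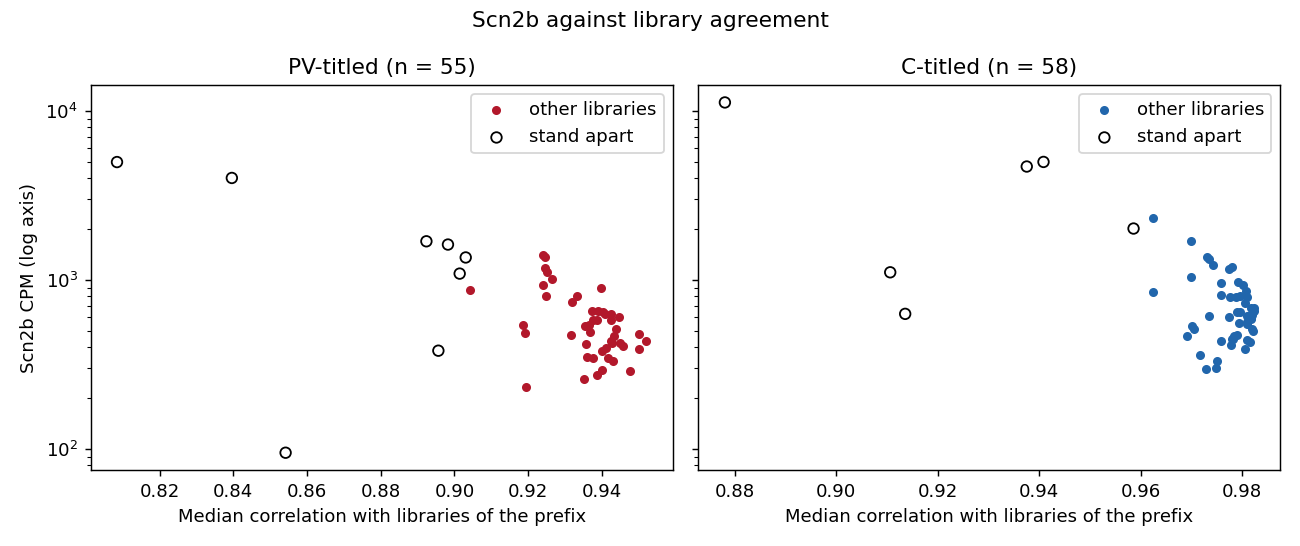
Scn2b level in CPM (log axis) against the median correlation of a library with the others of its title prefix, for PV-titled (left, n = 55) and C-titled libraries (right, n = 58). Open circles mark the 14 libraries that stand apart, which hold the 5 highest levels and the lowest one.

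Levels of different genes were compared per kilobase of exon. In PV-titled libraries the order of medians was Scn2b (117 CPM per kb), Scn8a (22.5), Scn2a (18.3), Scn3b (14.9), Scn1a (11.4), Scn3a (5.52) and Scn4b (1.49 CPM per kb). In C-titled libraries it was Scn2b (137 CPM per kb), Scn2a (29.1), Scn3b (23.9), Scn8a (21.2), Scn1a (4.03), Scn3a (4.03) and Scn4b (2.37 CPM per kb). The ends of both orders were firm: Scn2b exceeded the next gene in 54 of 55 PV-titled and 58 of 58 C-titled libraries, and Scn3a exceeded Scn4b in 55 of 55 PV-titled and 53 of 58 C-titled ones. Neighbours in the middle were less so, with Scn3b above Scn1a in 41 of 55 PV-titled libraries and Scn3b above Scn8a in 39 of 58 C-titled ones. Scn1a and Scn3a could be ordered in PV-titled libraries, where Scn1a was the higher in 55 of 55, but not in C-titled libraries, where it was the higher in 29 of 58.

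Of the summed per-kilobase level of the 4 alpha genes, Scn1a made up 20.2% ± 3.80 (SD, n = 55) in PV-titled libraries, against 6.86% ± 1.003 (n = 58) in C-titled libraries. Scn2a made up 32.2% ± 4.54 in PV-titled libraries, against 49.8% ± 5.86 in C-titled libraries. The Scn1a shares of the groups did not overlap, with a lowest share of 13.2% in PV-titled libraries, against a highest of 8.87% in C-titled libraries. The share of Scn3a was 9.52% ± 1.53 in PV-titled libraries, against 6.82% ± 1.07 in C-titled libraries, and that of Scn8a 38.1% ± 4.44 in PV-titled libraries, against 36.6% ± 6.07 in C-titled libraries. Thus Scn8a had the largest mean share in PV-titled libraries and Scn2a in C-titled ones. Single libraries did not all follow. Scn8a exceeded Scn2a per kilobase in 46 of 55 PV-titled libraries. In C-titled libraries the shares overlapped, at 40.6% to 70.4% for Scn2a and 20.5% to 47.9% for Scn8a.

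**Figure D3:**
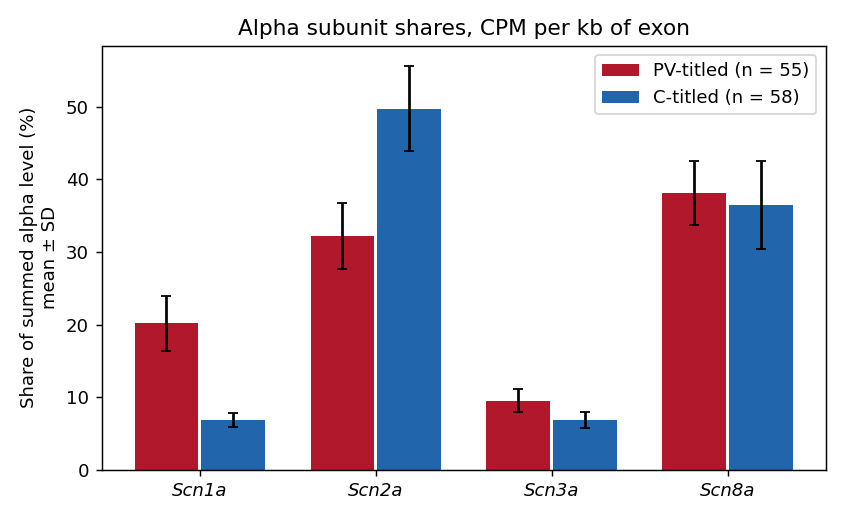
Share of each alpha subunit gene in the summed level of the 4 alpha genes (CPM per kb of exon, in percent), as mean ± SD over PV-titled (red, n = 55) and C-titled libraries (blue, n = 58). Scn1a holds 20.2% in PV-titled against 6.86% in C-titled libraries, and Scn2a 32.2% against 49.8%.

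The ratio of Scn1a to Scn2a counts within a library does not depend on how libraries are scaled to each other. Its median was 0.524 in PV-titled libraries and 0.124 in C-titled libraries. The log2 ratio ran from -1.82 to -0.06 in PV-titled libraries and from -4.42 to -2.40 in C-titled ones, so all 55 PV-titled libraries lay above the highest C-titled library. The difference of the means was 2.18 on the log2 scale, or 4.54-fold (two-sided permutation test, p = 1e-05, the smallest that 100000 resamples can give). It was 2.01 in the first range of library numbers, 2.34 in the second, 2.15 in females and 2.21 in males. As the ratio combines the Scn1a and Scn2a differences given above, its p is not independent of theirs.

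**Figure D4:**
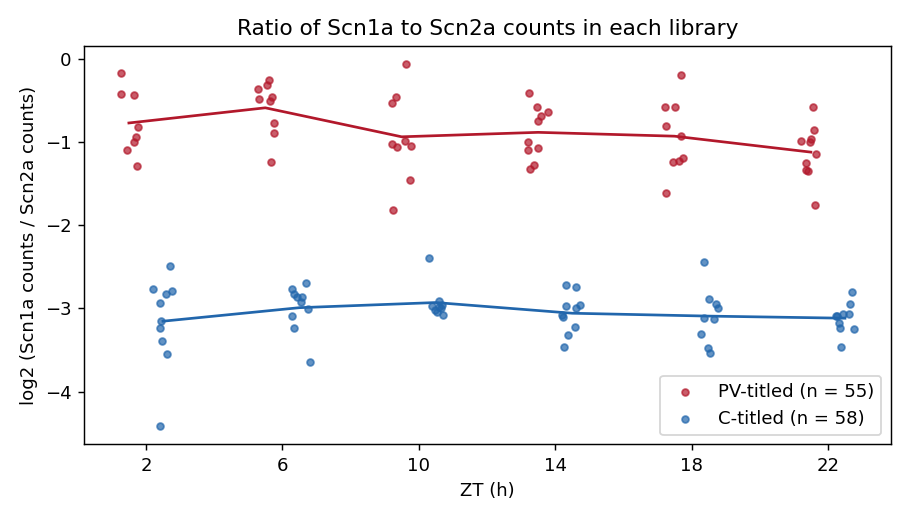
Log2 ratio of Scn1a to Scn2a counts in each library against time of day (ZT, hours), for PV-titled (red, n = 55, left at each time) and C-titled libraries (blue, n = 58), with lines through the means at each time. The groups do not overlap at any of the 6 times.

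The ratio of Scn4b to Scn2b, the neighbours on chromosome 9, gave no such separation. With 1 added to each count, the mean log2 ratio was -6.66 ± 1.91 (SD, n = 55) in PV-titled libraries, against -6.29 ± 1.80 (n = 58) in C-titled libraries, a difference of -0.37 (two-sided permutation p = 0.29). The difference was -1.13 in the first range (permutation p = 0.041) and 0.26 in the second (permutation p = 0.45), so its direction was not the same in both.

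Within the PV-titled libraries, subunit levels were also set beside the marker sums, in 14 relations chosen after the data were seen (n = 55 libraries, permutation tests, p adjusted over the 14). By Pearson's r 9 of the 14 passed an adjusted p of 0.05, and 8 passed by both measures. Scn1a went with the PV marker sum (Pearson r = 0.73, Spearman rho = 0.69, each adjusted p = 0.00014, r = 0.72 without the 2 libraries farthest from the median). The r was 0.66 and 0.70 within the first and second range, and 0.73 without the libraries that stand apart. Against the pyramidal sum, Scn1a had r = -0.07 over all PV-titled libraries (adjusted p = 0.73) but -0.48 in the first and -0.69 in the second range. Scn2a went with the pyramidal sum (r = 0.45, rho = 0.46, adjusted p = 0.0019 for r and 0.0021 for rho, r = 0.49 without the 2 farthest libraries), with r = 0.08 in the first and 0.48 in the second range, so that relation did not hold in the first range. The largest r with the pyramidal sum over all PV-titled libraries was that of Scn4b (r = 0.53, adjusted p = 0.00028, rho = 0.50, adjusted p = 0.0015), with r = 0.43 without the 2 farthest libraries and 0.39 and 0.35 in the 2 ranges. Without the libraries that stand apart the order changed, with r = 0.33 for Scn4b and 0.58 for Scn2a. Scn3b also went with the pyramidal sum (r = 0.42, adjusted p = 0.0039, rho = 0.40, adjusted p = 0.01), with r = 0.39 without the 2 farthest and 0.34 and 0.39 in the ranges. Its r was 0.29 without the libraries that stand apart. Scn8a went with the PV sum (r = 0.48, adjusted p = 0.0015, rho = 0.38, adjusted p = 0.011), with r = 0.42 without the 2 farthest and 0.53 and 0.35 in the ranges. This r fell to 0.25 without the libraries that stand apart. The other 3 that passed by both measures were weaker: Scn4b with the PV sum (r = 0.35, and 0.37 and 0.08 in the ranges), and Scn2b with the PV sum (r = -0.38, and -0.32 and -0.31 in the ranges) and with the pyramidal sum (r = -0.35, and -0.23 and 0.11 in the ranges). Without the libraries that stand apart these 3 had r = 0.19, -0.21 and -0.25 in that order. Scn8a with the pyramidal sum passed by Pearson's r alone (r = 0.32, adjusted p = 0.026), and had r = -0.12 without the libraries that stand apart. These levels share a library and its depth.

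Rhythm over the day was tested by fitting a cosine and a sine of a 24 h period within each prefix. The amplitude is the log2 distance from mean to peak. In PV-titled libraries none of the 7 genes passed at an adjusted p of 0.05, where 3.1% of all genes did. In C-titled libraries 3 of 7 passed (Scn1a, Scn2b, Scn3b), where 27% of all genes did. The median amplitude over all genes was 0.11 in PV-titled libraries, against 0.12 in C-titled libraries. The difference in rhythm between the prefixes passed for none of the 7 genes, against 0.559% of all genes, so no profile was shown to differ between them. At an unadjusted p below 0.05 the edgeR fits gave Scn1a in PV-titled libraries and Scn2b for the difference between prefixes, and DESeq2 at its adjusted p gave 1 and 0 of the 7 genes.

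Scn1a had its highest median at ZT6 in PV-titled libraries and at ZT10 in C-titled libraries. From ZT2 to ZT22 the medians were 123, 146.3, 112, 131, 125 and 108 CPM in PV-titled libraries and 43.9, 46.9, 50.8, 42.4, 47.4 and 41.8 CPM in C-titled libraries. The mean at ZT6 was 166.9 ± 37.9 CPM (SD, n = 9) in PV-titled libraries and 50.6 ± 10.4 (n = 10) in C-titled libraries, and that at ZT22 was 114 ± 30.6 (n = 10) in PV-titled libraries, against 41.4 ± 8.39 (n = 10) in C-titled libraries. Libraries of one time spread over a range wider than the step between times. The fitted amplitude was 0.20 (SE 0.05) with a peak at ZT8.03 in PV-titled libraries and 0.15 (SE 0.05) with a peak at ZT7.83 in C-titled libraries. By edgeR the adjusted p was 0.0568 in PV-titled libraries, where DESeq2 gave 0.0330, and 0.0270 in C-titled libraries. The C-titled call did not pass within either range (amplitudes 0.17 and 0.14, adjusted p = 0.287 and 0.201), in either sex alone, without TMM scaling (0.14, adjusted p = 0.134), with time as a factor (adjusted p = 0.163), or without replicate 3, 4 or 10, and the PV-titled one passed without replicate 5 (0.21, adjusted p = 0.0443).

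Scn3b was higher at the later times in C-titled libraries. Its medians in C-titled libraries were 122, 110, 116, 135, 138 and 140 CPM from ZT2 to ZT22. The 3 earlier times lay below the 3 later ones, although single libraries overlapped. In PV-titled libraries the medians were 83.0, 68.8, 73.6, 86.0, 75.6 and 95.3 CPM. The amplitude in C-titled libraries was 0.22 (SE 0.04) with a peak at ZT18.5, a trough-to-peak ratio of 1.35 (edgeR adjusted p = 0.000612). It was 0.18 in the first range (adjusted p = 0.125), 0.30 in the second (adjusted p = 0.00905), 0.25 in females alone (adjusted p = 0.0534), 0.19 in males alone (adjusted p = 0.157) and 0.18 with the 6 that stand apart left out (adjusted p = 0.000333). In PV-titled libraries it was 0.12 (SE 0.06) with a peak at ZT17.9 (adjusted p = 0.482).

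Scn2b had the largest fitted amplitude in C-titled libraries, 0.71 (SE 0.19) with a peak at ZT4.98 (edgeR adjusted p = 0.0155). Its medians there hardly moved over the early times, at 670, 657 and 683 CPM at ZT2, ZT6 and ZT10, then 803, 602 and 620 CPM at ZT14, ZT18 and ZT22. The means, 1795 ± 3342 CPM (SD, n = 10) at ZT2 and 1498 ± 1780 (n = 10) at ZT6, were raised by a few libraries, and 5 of the 6 C-titled libraries that stand apart are at ZT2 or ZT6. Without the libraries that stand apart the amplitude was 0.25 and did not pass (adjusted p = 0.254). It was 0.68 in the first and 0.64 in the second range and passed in neither (adjusted p = 0.319 and 0.119). Without replicate 5 it was 0.30 and without replicate 6 it was 0.46, and it passed in neither case. In PV-titled libraries the amplitude was 0.36 (SE 0.16, adjusted p = 0.375), and the difference between prefixes had an unadjusted p of 0.00176 and an adjusted p of 0.101.

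The other 4 genes passed in neither prefix. Scn2a had an amplitude of 0.05 (SE 0.04) in PV-titled libraries, against 0.10 (SE 0.04, p = 0.0389, adjusted p = 0.104) in C-titled libraries. For Scn3a it was 0.03 (SE 0.05) in PV-titled libraries, against 0.05 (SE 0.04) in C-titled libraries, and for Scn8a 0.02 (SE 0.05) in PV-titled libraries, against 0.06 (SE 0.04) in C-titled libraries. Scn4b, at its low counts, had 0.16 (SE 0.19) in PV-titled libraries, against 0.13 (SE 0.14) in C-titled libraries. Their edgeR adjusted p was 0.545 or more in each case apart from Scn2a in C-titled libraries.

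**Figure D5:**
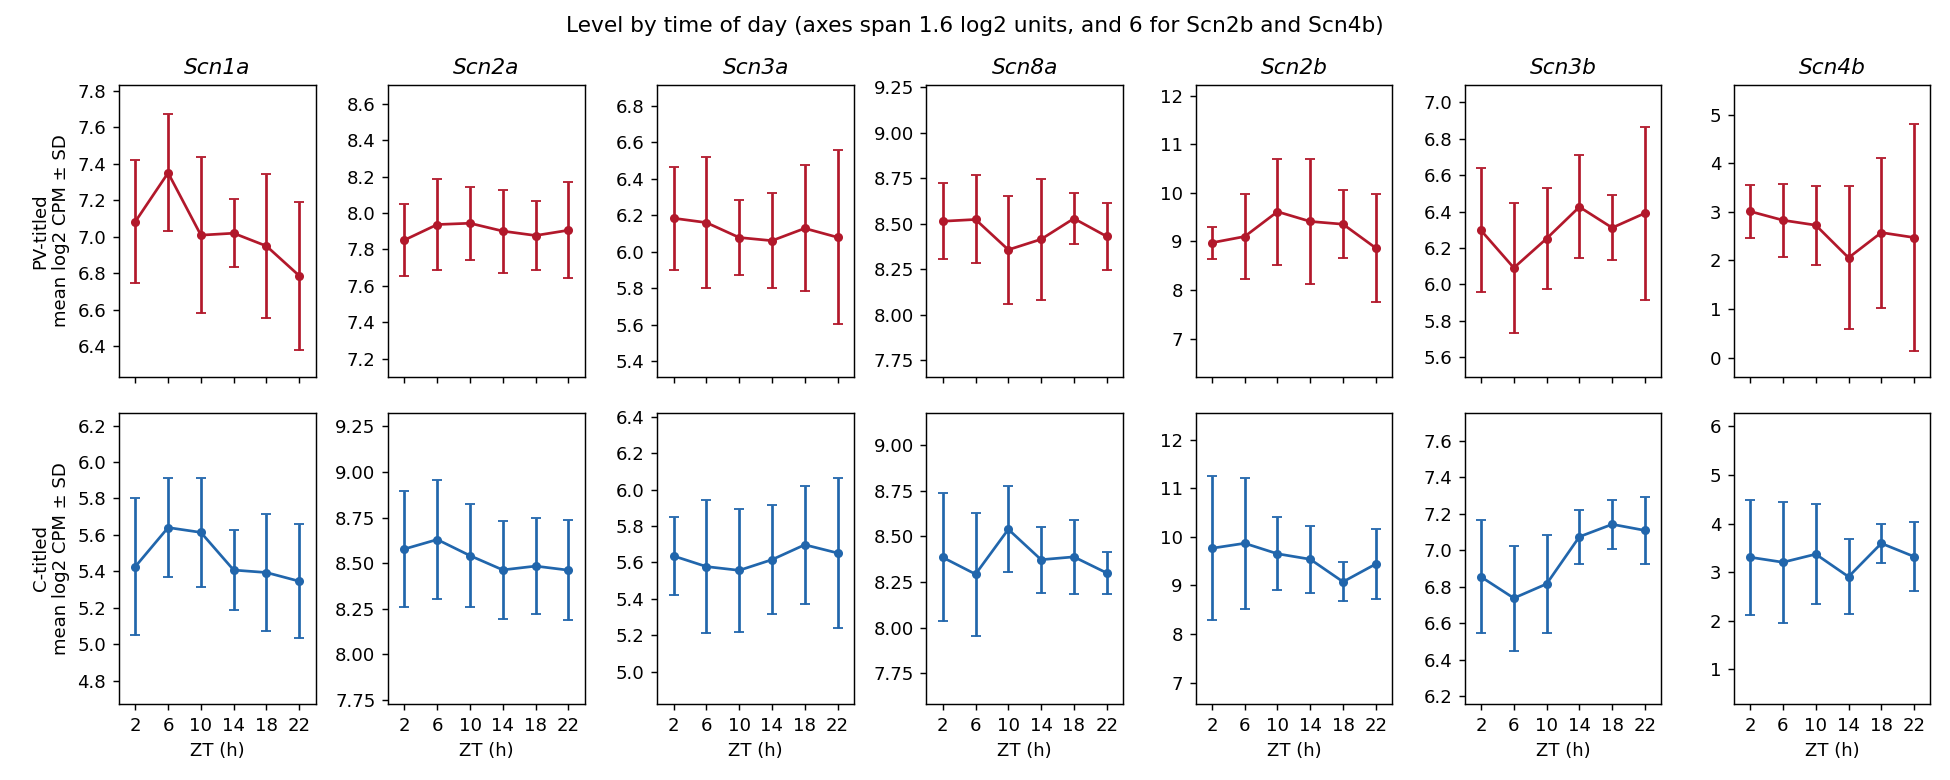
Mean log2 CPM ± SD of each gene at 6 times of day (ZT, hours) in PV-titled (upper row, 8 to 10 libraries a time) and C-titled libraries (lower row, 9 or 10 libraries a time). Axes span 1.6 log2 units, and 6 for Scn2b and Scn4b. Scn1a is highest at ZT6 in both rows, and Scn3b in C-titled libraries is higher from ZT14 on.

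None of the 7 genes differed between females and males in PV-titled libraries by edgeR (0.0307% of all genes did) or in C-titled libraries (0.184% did). At an unadjusted p below 0.05 there was none in PV-titled libraries and Scn3a alone in C-titled libraries, with a log2 difference of 0.14, female minus male (SE 0.05, p = 0.00895, edgeR adjusted p = 0.389), and DESeq2 called none of the 7 in either prefix.

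The sequence upstream of the start was read for the pair of alpha genes whose levels moved in opposite directions. The 250 bases before the RefSeq start (GRCm38.p6) are given 5′ to 3′ on the strand of the gene. For Scn1a they cover chromosome 2, 66440838 to 66441087, minus strand, and for Scn2a chromosome 2, 65620519 to 65620768, plus strand, upstream of the outermost of 2 Scn2a starts.
Scn1a: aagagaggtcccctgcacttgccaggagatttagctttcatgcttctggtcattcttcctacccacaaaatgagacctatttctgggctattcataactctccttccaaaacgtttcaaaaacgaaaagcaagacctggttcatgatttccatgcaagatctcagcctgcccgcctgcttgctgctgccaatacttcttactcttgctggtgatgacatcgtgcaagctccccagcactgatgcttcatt
Scn2a: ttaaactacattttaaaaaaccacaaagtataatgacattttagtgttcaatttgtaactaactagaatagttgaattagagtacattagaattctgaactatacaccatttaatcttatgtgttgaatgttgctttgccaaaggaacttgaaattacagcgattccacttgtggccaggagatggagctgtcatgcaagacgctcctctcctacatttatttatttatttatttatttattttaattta

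The share of G and C was 46.8% for Scn1a and 29.6% for Scn2a. On either strand neither window holds the E-box letters CACGTG, found in 6.02% of 32851 such windows, the D-box letters TTATGTAA (0.819%), the cyclic AMP response element TGACGTCA (1.55%), GGGCGG (32.7%) or TATAAA (12.4%). No base of these windows is in capitals, since none of the letters was matched in them, and nothing more follows from that. The window of the inner Scn2a start (chromosome 2, 65668436 to 65668685, plus strand, not printed) had 53.2% G and C and held TATAAA 1 time, with none of the other letters. Promoter entries were matched for 5 of the 7 genes, not for Scn3a or Scn3b.

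Other genes around the channel were counted from 4 lists, of which 33 of 38 genes were tested: 9 were higher and 20 lower in PV-titled libraries by edgeR, and 4 did not pass, where 44.3% of all genes were higher and 43.2% lower. The median log2 difference of the 33 was -0.24, against 0.01 over all genes. Of the 33, none passed for rhythm in PV-titled libraries, where 3.1% of all genes did, and 11 did in C-titled libraries, where 27% did. The rhythm calls of these genes were not examined without the libraries that stand apart.

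Among other sodium channel genes 3 of 6 tested were higher and 1 lower. Scn9a, the alpha subunit best known from sensory neurons, was 5.48-fold higher in PV-titled libraries (log2 2.45, edgeR adjusted p = 1.68e-40). Its levels were low, at 12.3 ± 4.31 CPM (mean ± SD) in PV-titled libraries, against 2.25 ± 1.07 CPM in C-titled libraries. Unc79 and Unc80, subunits of the complex of the sodium leak channel Nalcn, were higher by 1.40 and 0.92 on the log2 scale, while Nalcn itself stood at -0.25. Unc80 had the largest amplitude among the 2 of this list that passed for rhythm in C-titled libraries (0.13, peak ZT4.36, adjusted p = 0.0482).

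Of 8 genes listed for anchors of the axon initial segment and related proteins, 4 were higher and 3 lower. Ank2, an ankyrin of axons, was higher by 2.06 on the log2 scale, Sptan1, an alpha spectrin, by 1.92, and Ank3, which encodes ankyrin G, the initial segment anchor of sodium channels, by 1.53, a 2.89-fold difference. In C-titled libraries 3 of the 8 passed for rhythm, with the largest amplitude in Cntn1, a contactin (0.32, peak ZT3.97, edgeR adjusted p = 0.0276). Libraries varied widely there, with Cntn1 at 549 ± 397 CPM (mean ± SD). The 4 fibroblast growth factor homologous factors, which bind the channel tail, split as 1 higher and 3 lower. Fgf11 was 5.38-fold higher (log2 2.43), whereas Fgf13 stood at -0.91 and Fgf12 at -0.58, and none passed for rhythm. Fgf11 was also low in level, with a mean of 12.2 CPM in PV-titled libraries, against 2.27 CPM in C-titled libraries.

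Regulators and processing enzymes were mostly lower in PV-titled libraries, 13 of 15 tested against 1 higher (43.2% lower and 44.3% higher over all genes), with a median log2 difference of -0.45. S100a10, the annexin partner p11, stood at -1.40, Gpd1l at -1.11 and Csnk2b, the regulatory subunit of casein kinase 2, at -0.97. In C-titled libraries 6 of the 15 passed for rhythm, with the largest amplitude in Adam10, a membrane protease (0.46, peak ZT4.50, edgeR adjusted p = 0.0210). The SD of Adam10 there was as large as its mean, at 109 ± 112 CPM.

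Genes whose profile was most like that of a subunit were ranked by the Pearson correlation over the 12 means of prefix and time. For Scn1a they were Nek9, Brca2 and Kat6b (r = 0.997 for each), and for Scn2a Serbp1, Atp2b1 and Aimp1 (0.998 for each). For Scn3a they were Gm43486, Btbd11 and Evc (0.996, 0.995 and 0.995), and for Scn3b Smoc2, Ccdc3 and Brinp2 (0.991, 0.990 and 0.990). Since most of the variation among the 12 means lies between the prefixes, 3802 genes had r above 0.9 with Scn1a. Scn8a, whose prefixes barely differed, had none above 0.9, and its closest were Tmem132d (0.863), Ccdc85c (0.806) and Klc3 (0.8001). For Scn2b they were Abcg1, Actb and Wtap (0.983, 0.973 and 0.969), and for Scn4b Nrsn2, Gm15564 and Borcs6 (0.943, 0.941 and 0.936). The 12 means include the libraries that stand apart, which hold the highest levels of Scn2b. The ranking was not repeated without them.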

How the data were processed

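RNA on tagged ribosomes was sequenced in 114 libraries, of which 113 were used. Of the columns of per-sample values 1 was not used, because its name and the title it would match give different sexes. The values are read counts per gene in a table deposited by the authors. Per the submitters' processing notes FastQC, HTSeq and DESeq2 were used with GRCm38. The sources used here do not give the aligner, versions or strand setting. Per the labels, cDNA was made with SMART-seq HT. A row of reads on no gene, whose median share was 61.2% (PV-titled) and 52.8% (C-titled libraries), was left out of library sizes. Of 13101 IDs 13051 matched a GENCODE vM21 symbol.

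Counts were tested with edgeR 4.0.16 in R 4.3.3: TMM scaling, filterByExpr by prefix, time and sex, and quasi-likelihood tests with Benjamini-Hochberg adjustment over all genes. The difference between prefixes was fitted with time, sex and library-number range as further terms, and rhythm with sex and range. CPM were computed after TMM scaling of all libraries. Per-length levels used the exon length in GENCODE vM21. Libraries stand apart where the median correlation lies over 5 median absolute deviations below that of the prefix. The fits were tested on simulated data. DESeq2 1.42.0, other scalings, no filter on low counts, subsets and omission of each replicate were alternatives. Pairs of libraries within a prefix and time differed by a chi-square per gene of at least 32.6 (226 PV-titled pairs) and 14.0 (252 C-titled pairs). Thus no library was a copy of another of its prefix and time, and other pairs are not covered. From the related lists the 3 largest called differences and the largest called amplitude are named, and from the likeness ranking the first 3. Nalcn was added after its value was seen. Some items are not reported here. Genes, lists and tests were chosen with earlier results of these data known. Beyond the limit given for a count of 0, no interval for counting error is given, since reads without molecular identifiers are not independent molecules.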

Additional observations from a re-analysis of the deposited data

Results flagged for a closer look

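In 14 of 84 groups of 1 gene, prefix and time, the highest library lay far from the others by Dixon's criterion. For independent, normally distributed values chance alone gives about 1 such group in 20. Levels of Scn2b are skewed and some flagged values share a library, so that rate need not hold here. Of the 14 values, 8 come from libraries that stand apart in their overall correlation.

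Scn2b gave 6 of them. In PV-titled libraries it had 1620 CPM in replicate 1 at ZT6 (the others 259.1 to 937), 4014 CPM in replicate 2 at ZT10 (274.2 to 1115) and 4985 CPM in replicate 2 at ZT14 (232.6 to 1693). In C-titled libraries it had 11233 CPM in replicate 5 at ZT2 (330 to 1707), 2336 CPM in replicate 6 at ZT10 (446 to 1326) and 2015 CPM in replicate 2 at ZT22 (428 to 1225).

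Scn4b had 16.7 CPM in PV-titled replicate 8 at ZT6 and 18.5 CPM in PV-titled replicate 7 at ZT10, and 23.3 CPM in C-titled replicate 7 at ZT14. Scn1a reached 58.4 CPM in the same C-titled replicate 7 at ZT14 and 75.3 CPM in C-titled replicate 10 at ZT6, where Scn3a reached 84.5 CPM. Scn3b had 116 CPM in PV-titled replicate 4 at ZT10 and Scn2a 602 CPM in C-titled replicate 5 at ZT2. That C-titled library held 12255 Scn2a counts among 31.2 M counts on genes, so its 602 CPM depend on the TMM scaling.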

How the results depend on the processing

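Directions and calls of Scn1a, Scn2a, Scn3a and Scn3b between prefixes were the same under all 19 alternatives. The number of the 7 genes called between prefixes was 6, and 4 to 7 under the alternatives (5 to 7 without 1 replicate number). Rhythm in C-titled libraries was called for 3 of 7, but for 0 in females alone, in males alone and in the first range, 1 in the second range and 1 with time as a factor, and for 2 to 3 without 1 replicate number. Rhythm in PV-titled libraries was called for 0, for 1 by DESeq2, and for 0 to 1 without 1 replicate number. The Scn4b to Scn2b difference of -0.37 was -1.13 in the first range. The cause was not tested; the subsets hold fewer libraries.

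Over all genes, calls for rhythm numbered 404 in PV-titled libraries (8 in males alone, 573 by DESeq2) and 3518 in C-titled libraries (472 in males alone, 378 in the first range, fewest in females alone, 3737 by DESeq2). Calls for a difference in rhythm numbered 73 (0 in the first range, 2 in the second). For sex they numbered 4 in PV-titled libraries (2 in the first range) and 24 in C-titled libraries (4 in the second range, 91 without the libraries that stand apart). Without TMM scaling the median log2 difference over all genes was 0.21, where Scn8a stood at 0.28 (called) and Scn2b at -0.22 (not called). No paired analysis was possible because replicate numbers were given in accession order and the labels tie no PV-titled library to a C-titled one. Scn4b rests on 0 to 935 counts per library.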
